A study of Schizosaccharomyces pombe with 2 samples.

Results

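The 9 genes described here run the fission yeast cell cycle and prepare its origins for replication. They were chosen by name and systematic identifier, with no measured value in the rule: cdc2, cdc13, cig2, cdc25, wee1, rum1, cdc18, cdt1 and cdc22. All 9 were found among the 5129 mRNAs of the deposited table, together with the rows of their coding exons and of noncoding transcripts on the other strand. The values are small RNA reads from exponentially growing Schizosaccharomyces pombe, with 1 library from a wild-type strain (WT, YAM2394) and 1 library from a strain lacking Exo2 (exo2Δ, YAM2397). Per the study's methods both strains were h+ and carried ade6-M210, ura4-D18 and leu1-32, and in the mutant a kanMX4 cassette replaced exo2. The gel-purified RNAs measured 10 to 40 nt per the labels, and sequencing reads were 40 nt long. Exo2 is the fission yeast Xrn1, which degrades RNA from its 5′ end in the cytoplasm, and XUTs are noncoding transcripts named for building up when it is missing.

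Cdc2 is the cyclin-dependent kinase of fission yeast. Its B-type cyclin Cdc13 drives mitosis, and Cig2 is the main cyclin of the G1 to S transition. Wee1 phosphorylates Cdc2 on a tyrosine and delays mitosis, Cdc25 removes that phosphate, and Rum1 inhibits Cdc2 in G1. Cdc18 and Cdt1 load the MCM helicase onto origins, which licenses them for 1 round of replication. Cdc22 is the large subunit of ribonucleotide reductase, the enzyme that makes deoxyribonucleotides. The transcription factor MBF, which acts at the G1 to S transition, is known to control cdc18, cdt1, cdc22 and cig2.

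The MBF binding element is the MluI cell cycle box, whose core is ACGCG on either strand. The stretches at these 4 genes are shown because they hold the element through which MBF is known to act. They were read 5′ to 3′ on the gene's strand from RefSeq ASM294v3, and capitals mark each core (ACGCG or its complement CGCGT). For cdc18, cdc22 and cig2 the 120 bases before the deposited start are given, and for cdt1 a stretch of 30 bases inside the deposited row, chosen after the window used for the others was found to hold no core.
cdc18, chrII:2218032-2218151, minus strand: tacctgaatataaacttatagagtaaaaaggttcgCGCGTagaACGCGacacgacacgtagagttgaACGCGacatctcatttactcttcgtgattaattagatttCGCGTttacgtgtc
cdc22, chrI:4226838-4226957, plus strand: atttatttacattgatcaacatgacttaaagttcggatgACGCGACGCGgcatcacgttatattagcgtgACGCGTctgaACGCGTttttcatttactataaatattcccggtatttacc
cig2, chrI:2709611-2709730, plus strand: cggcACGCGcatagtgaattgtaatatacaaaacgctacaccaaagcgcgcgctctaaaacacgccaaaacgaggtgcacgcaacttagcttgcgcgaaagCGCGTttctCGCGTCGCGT
cdt1, chrII:477304-477333, plus strand: atagctACGCGACGCGTcaacaaACGCGac

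In the window from 250 bases before to 50 bases after the deposited start, the core occurred 6 times at cdc18, 6 times at cdc22 and 5 times at cig2, where overlapping cores on both strands were each counted. It did not occur in that window at cdt1, cdc2, cdc13, cdc25, wee1 or rum1. Of 5117 such windows 10.98% held at least 1 core, and 3.87% held 2 or more. At cdt1 the cores lie after the deposited start at 477189 and before the RefSeq start at 477392, and the rows of the other 5 genes were not searched beyond the window. The full box ACGCGT, the same on both strands, was in 3.03% of windows. Among the windows of these genes only that of cdc22 held it, with 2 copies. The cdt1 stretch shown above, which lies outside its window, also holds the full box. These are matches of letters and not measured binding.

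Counted over all rows except coding exons, which lie inside genes, there were 13555082 reads in WT and 13678760 in exo2Δ. mRNAs held 1937624 and 1675011 of them, with a median of 98 and 90 reads per mRNA. The coding exons of exo2 itself had 251 reads in WT and 26 in exo2Δ, lower in the direction of the labels but not 0. The gene ura4, deleted in both strains, had 1 read in each. Each strain has 1 library, so replicate error is unknown and the strains could not be tested against each other. All intervals describe counting error alone, and reads were not tied to single molecules by identifiers.

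Small RNA reads were recorded in all 9 genes in both libraries, and their levels spanned about an order of magnitude. The level is the tag density, the reads of a gene divided by its length. Exact Poisson 95% intervals are given for counting error. The gene cdc22 (SPAC1F7.05, chromosome I, 4226958 to 4229989, plus strand) had the highest level. It had 666 reads in WT and 540 in exo2Δ, or 0.220 tags per nt (0.203 to 0.237) and 0.178 (0.163 to 0.193). The cyclin gene cdc13 (SPBC582.03, chromosome II, 420076 to 423276, plus strand) came next with 506 and 457 reads. Its densities were 0.158 (0.145 to 0.172) and 0.142 (0.130 to 0.156). In each library the intervals of these genes overlapped neither each other nor those of the remaining 7. In WT, 88.0% of all mRNAs had a lower density than cdc22, and 83.9% a lower one than cdc13.

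The kinase gene cdc2 (SPBC11B10.09, chromosome II, 1500197 to 1502095, plus strand) had 94 reads in WT and 71 in exo2Δ, or 0.0495 and 0.0373 tags per nt. The phosphatase gene cdc25 (SPAC24H6.05, chromosome I, 479228 to 482556, minus strand) had 164 and 169 reads, or 0.0493 and 0.0507 tags per nt. The cyclin gene cig2 (SPAPB2B4.03, chromosome I, 2709731 to 2714162, plus strand) had 241 and 124 reads, or 0.0544 and 0.0279 tags per nt. These genes could not be ordered in WT, where their intervals overlapped. In exo2Δ the interval of cig2 (0.0232 to 0.0333) lay below that of cdc25 (0.0433 to 0.0589), and cig2 went from a level above 54.9% of mRNAs to one above 32.7%.

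The remaining 4 genes had the lowest densities. The licensing gene cdc18 (SPBC14C8.07c, chromosome II, 2215955 to 2218031, minus strand) had 72 reads in WT and 42 in exo2Δ, or 0.0347 and 0.0202 tags per nt. The inhibitor gene rum1 (SPBC32F12.09, chromosome II, 2799685 to 2801917, plus strand) had 76 and 59 reads, or 0.0340 and 0.0264 tags per nt. The kinase gene wee1 (SPCC18B5.03, chromosome III, 721788 to 725835, plus strand) had 128 and 73 reads, or 0.0316 and 0.0180 tags per nt. The licensing gene cdt1 (SPBC428.18, chromosome II, 477189 to 478738, plus strand) was lowest in both libraries, with 35 and 19 reads, or 0.0226 (0.0157 to 0.0314) and 0.0122 (0.00736 to 0.0191) tags per nt. The WT intervals of these 4 genes overlapped. In WT 22.1% of mRNAs had a lower density than cdt1, and in exo2Δ 13.6%.

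**Figure D1:**
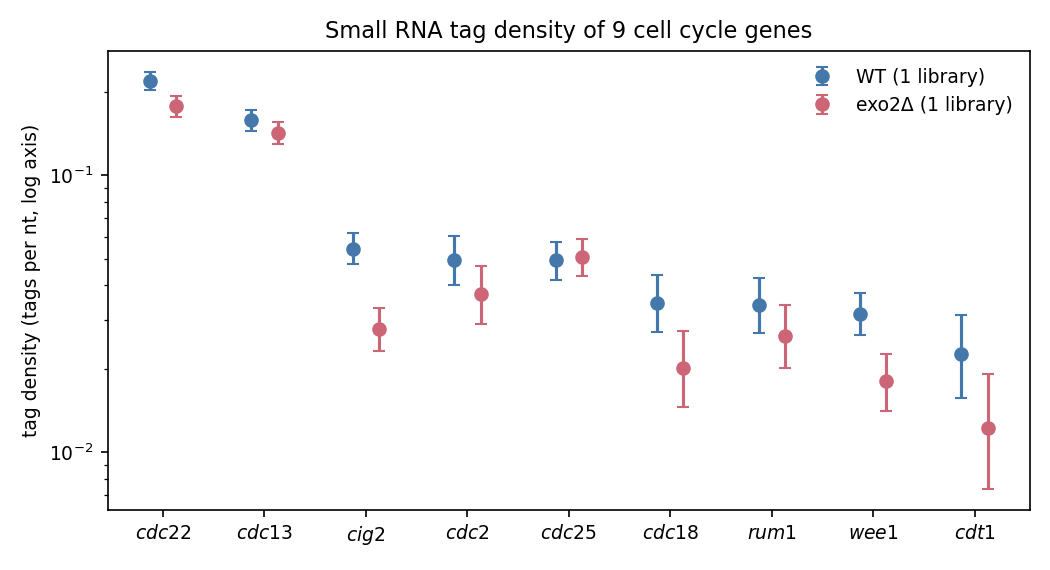
Tag density in tags per nt (log axis) of the 9 genes in the WT and exo2Δ libraries, ordered by the WT value, with exact Poisson 95% intervals of the reads. The genes cdc22 and cdc13 stand above the others in both libraries, and cdt1 is lowest in both.

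The 2 libraries were then compared gene by gene. Density was lower in exo2Δ for 8 of the 9 genes as deposited, with cdc25 the exception, for 9 with sn(o)RNAs as the scale and for 7 with the median mRNA ratio as the scale. The log2 ratio of exo2Δ over WT, with 1 read added to each library, had a median of -0.40 over the 9 genes, against -0.15 over the 4749 mRNAs whose reads averaged 10 or more across the libraries. All 9 genes passed this limit. Of the 4749 mRNAs, 2987 also had a log2 ratio below 0 as deposited. Their median was -0.39 with sn(o)RNAs as the scale, and the median mRNA ratio as the scale puts it near 0 by construction. None of the 9 was more than 2-fold lower or higher, where 5.05% of these mRNAs were more than 2-fold lower and 2.4% more than 2-fold higher. The 9 genes together held 1982 WT reads and 1554 exo2Δ reads, a ratio of 0.782 (0.732 to 0.837). All tested mRNAs together had a ratio of 0.863 (0.861 to 0.864). Small RNA density is not a measure of mRNA level. In its total RNA, scaled on sn(o)RNAs, the study reported a general rise of mRNAs in exo2Δ. In cells from a whole culture, fewer cells in a cell cycle phase and fewer of these small RNAs per cell cannot be told apart.

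The lowest ratio was that of cig2, at 0.513 of the WT density (exact binomial 95% interval 0.410 to 0.640). Its log2 ratio was -0.96, and 5.71% of the tested mRNAs had a lower one. The gene cdt1 had a ratio of 0.542 (0.293 to 0.973), wee1 0.569 (0.421 to 0.765), and cdc18 0.582 (0.388 to 0.863). The share of tested mRNAs with a lower log2 ratio was 8.02% for cdt1, 9.16% for wee1 and 10.3% for cdc18. These 4 genes were followed by cdc2 at 0.754 (0.546 to 1.04), rum1 at 0.775 (0.542 to 1.10), cdc22 at 0.809 (0.721 to 0.908) and cdc13 at 0.901 (0.792 to 1.02). The ratio of cdc25 was 1.03 (0.825 to 1.28). Counting intervals lay below 1 for 5 genes and included 1 for cdc2, cdc13, cdc25 and rum1. The share of tested mRNAs with an interval below 1 was not computed, so this count has no background. All tested mRNAs together had a ratio of 0.863, and only the intervals of cig2 and wee1 lay below that value.

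Counting error is not the only difference between 2 libraries, so the spread over mRNAs of like depth was set beside it. The middle 80% of log2 ratios ran from -0.64 to 0.48 for the 1140 mRNAs with a mean from 100 to under 200 reads. Both cig2 (-0.96) and wee1 (-0.80) lay below this range. For the 1219 mRNAs with a mean from 50 to under 100 reads it ran from -0.76 to 0.45, and cdc18 (-0.77) lay at its lower end. For 1076 mRNAs with a mean from 10 to under 50 reads it ran from -0.94 to 0.64 and held cdt1 (-0.85). The other 5 genes lay inside the range of their depth.

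Scaling did not affect the order of these ratios but moved all of them. The log2 ratios were lower by about 0.24 when sn(o)RNAs set the scaling (a shift of -0.24), and cig2, cdt1, wee1 and cdc18 were then more than 2-fold lower, with 10.5% of mRNAs below that limit. Scaling on the median ratio of mRNAs moved them up by 0.15. The direction of cdc25 reversed to -0.20 on sn(o)RNAs, and that of cdc13 to 0.0046 on the median of mRNAs. The other 7 genes were lower in exo2Δ under all 4 scalings. Whatever the scaling, the interval of cdc25 overlapped none of those of cig2 and wee1. Both cdc25 and wee1 act on the same tyrosine of Cdc2, and their small RNA densities, 0.0493 and 0.0316 tags per nt in WT, were 0.0507 and 0.0180 in exo2Δ.

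**Figure D2:**
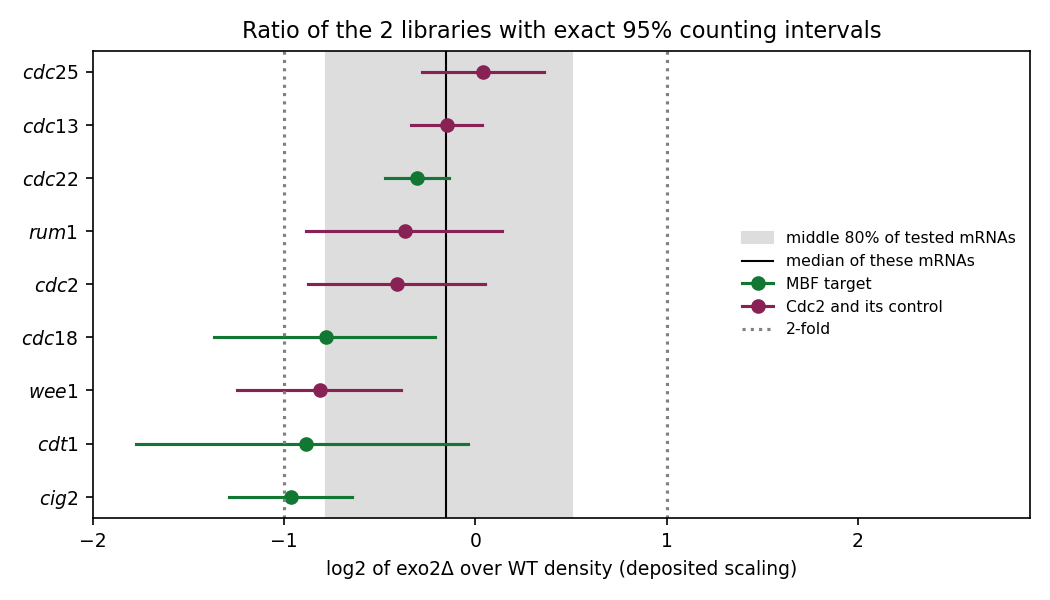
Log2 of the exo2Δ over WT density for each gene, with exact binomial 95% counting intervals and no read added, on the deposited scaling. The grey band is the middle 80% of the tested mRNAs, from -0.78 to 0.51, and the black line their median of -0.15, both with 1 read added; cig2, cdt1, wee1 and cdc18 lie at or beyond its lower edge, and cdc25 lies above the median.

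The MBF targets and the other genes were described side by side. The 4 MBF targets among the 9 genes had a median log2 ratio of -0.81 and the 5 other genes one of -0.36. Genes of the other lists below were not sorted by MBF control, so these 4 do not stand for MBF targets in general. In the MBF targets 3 of the 4 ratios, for cdc18, cdt1 and cig2, lay between -0.96 and -0.77, whereas cdc22, with most of their reads, was at -0.31. In summed reads the MBF targets had 1014 in WT and 725 in exo2Δ, a ratio of 0.713 (0.648 to 0.786). Without cdc22 they had 348 and 185, a ratio of 0.530 (0.441 to 0.636). This second ratio was not planned, and leaving out the gene with the highest of the 4 ratios lowers it by construction. The 5 other genes had 968 and 829 reads, a ratio of 0.855 (0.778 to 0.939), near the 0.863 of all tested mRNAs. Among the 5 other genes, wee1 (-0.80) was as low as the MBF targets. The groups therefore overlapped, and the difference between them was not tested, since 1 library per strain leaves only the genes as units.

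Within each gene, reads inside and outside the coding exons were separated. The part outside holds UTRs and, in cdc2 and cdc22, introns. In cdt1 no read fell outside, of 35 in WT and 19 in exo2Δ, which by the rule of 3 reads of the total allows shares of up to 8.57% and 15.8%, where 13.9% of the row is outside. Of the outside part of cdt1, 176 nt come before the first codon and also before the RefSeq start at 477392. Whether they are transcribed was not tested. The interval drawn for cdt1 in the plot of outside shares is the wider exact binomial one. In cdc18 the shares were 5.56% and 4.76% of reads, and in cdc22 4.95% and 4.07%, against 16.5% and 19.7% of the length. In wee1 they were 27.3% and 23.3%, in cig2 39.8% and 33.1%, in cdc25 46.3% and 49.7%, in cdc13 48.4% and 38.9%, and in cdc2 48.9% and 36.6%. In rum1 most reads were outside, 73.7% in WT (62.3% to 83.1%) and 81.4% in exo2Δ (69.1% to 90.3%). Over the tested mRNAs the median share was 15.9% in WT and 16.2% in exo2Δ, for 34.2% of the length. In each library 7 of the 9 genes had a smaller share of reads than of length outside, the exceptions being rum1, with 69.0% of its length outside, and cdc25, with 46.2%. In cig2 the gap was widest, since 72.1% of its length is outside.

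**Figure D3:**
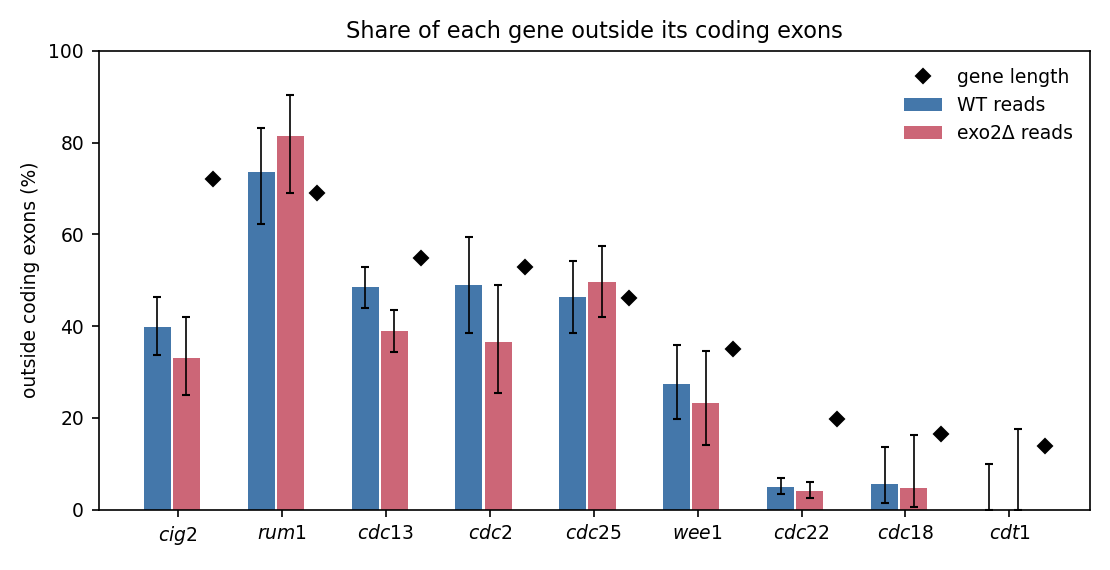
Share in percent of each gene's reads that fell outside its coding exons, in WT and exo2Δ, with exact binomial 95% intervals. Diamonds give the share of the gene's length outside, which exceeds both shares of reads in all genes except rum1 and cdc25.

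This separation bears on the ratio of cdc13. Its coding exon (421123 to 422571) held 261 WT reads and 279 exo2Δ reads, whereas the rest of the row had 245 and 178. As deposited, the part outside was lower in exo2Δ, at a ratio of 0.725 (0.594 to 0.883), and the coding exon was not, at a log2 ratio of 0.093. Reads outside per coding read were 0.939 in WT and 0.638 in exo2Δ, an odds ratio of 0.680 (0.522 to 0.886), which does not depend on the scaling. Among 838 mRNAs that averaged 50 reads or more in both parts, 7.64% had a lower change, and the middle 80% ran from -0.51 to 0.72 on the log2 scale where cdc13 had -0.55. The interval of the odds ratio included 1 in cdc2, cig2, cdc25, wee1, rum1, cdc18 and cdc22. In cig2 both parts were lower, with 145 and 83 reads in its coding exon (2711080 to 2712315) and 96 and 41 reads outside.

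In cdc2 the 5 coding exons could be read one by one. In exon 4 (1501088 to 1501393) 18 WT reads and 26 exo2Δ reads were counted. Exons 2, 3 and 5 had 14, 10 and 5 reads in WT and 10, 7 and 1 in exo2Δ, and exon 1, of 37 nt, had 1 read in each. Summed over its exons cdc2 had 48 and 45 reads, a ratio of 0.936 (0.609 to 1.44), and outside them 46 and 26, a ratio of 0.564 (0.335 to 0.932). Reads of single exons were too few to order them. In cdc22 the first coding exon, of 19 nt, had no read, and the second (4227317 to 4229733) had 633 and 518.

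Annotated noncoding units on the gene's own strand marked where some of the outside reads lay. In wee1 a unit after the coding exon (novelncTU_219, 725147 to 725684) held 26 of the 35 outside reads in WT and 13 of 17 in exo2Δ. In rum1 a unit near the start (novelncTU_175, 2799697 to 2800016) held 14 of the 56 outside reads in WT and 19 of 48 in exo2Δ, while the rum1 coding exon had 20 and 11. Such reads cannot be divided between the gene and the unit.

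Transcripts on the other strand were examined next, since the study asked whether XUTs opposite to mRNAs give small RNAs. It reported no enrichment of small RNA tags in these XUTs, and no difference of tag density between overlapped and other regions of the same mRNAs. Per the study, reads on these regions lacked the typical size of small interfering RNAs made by Dicer. It concluded that RNA interference does not target these XUTs. The deposited densities do not give read sizes, so how the reads below arose was not tested here. All 4 MBF targets had a XUT or another noncoding unit on the other strand over at least 50 nt, as had 1 of the 5 other genes, cdc2. Of all mRNAs 36.2% had one. A XUT lay opposite to 3 of the 4 MBF targets and to none of the 5 others, against 21.2% of all mRNAs. Of the 9 opposite rows, 6 had more reads in exo2Δ, 2 had equal numbers and 1 had fewer. These rows overlap each other at cdc18, cdt1 and cdc22 and form 6 separate stretches, so some reads count more than once. Of the 2476 noncoding rows opposite to an mRNA in the whole table, 43.7% had more reads in exo2Δ, 16.6% had equal numbers and 39.7% had fewer. Among the 9 the counting interval of the ratio lay above 1 only for XUT0194, opposite to cdt1.

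The pair of cdt1 and XUT0194 stood apart from the other opposite rows. The study also used it as an example pair, so it was not picked at random. By RT-qPCR of total RNA, the study measured both strands of several pairs, this one included. It reported that the rise of these XUTs in exo2Δ did not correlate with lower sense mRNA. XUT0194 (chromosome II, 477190 to 478743, minus strand) covers 99.9% of the cdt1 row. The 2 strands over the end of the cdt1 coding exon, chrII:478640-478699, are shown because reads were assigned by strand here and the same bases belong to both rows. Capitals mark the cdt1 stop codon and its complement.
cdt1 strand: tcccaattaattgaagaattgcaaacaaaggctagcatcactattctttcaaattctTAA
XUT0194 strand: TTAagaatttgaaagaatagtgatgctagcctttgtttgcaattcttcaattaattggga

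On the XUT strand 14 WT reads and 55 exo2Δ reads were counted, a ratio of 3.92 (2.15 to 7.63), and the cdt1 strand had 35 and 19. Of 334 XUTs past the same read limit, 14.7% were more than 2-fold higher in exo2Δ. At cdt1 the XUT strand thus held 28.6% of the 49 reads of both strands in WT (16.6% to 43.3%) and 74.3% of the 74 reads in exo2Δ (62.8% to 83.8%). The odds of a read lying on the XUT strand were 7.10 times higher (3.002 to 17.7), a comparison within each library that the scaling does not touch. Of 247 pairs in which both rows had a mean of at least 10 reads, this pair ranked 8, with a log2 change of 2.75 where the median pair had 0.31. The first of these pairs contains the deleted exo2 gene itself. The majority strand went from mRNA to XUT in 18 of the 247 pairs, cdt1 among them, and from XUT to mRNA in 10. These pairs passed a limit on reads that a XUT can meet through the library where it is high. A shorter unit inside XUT0194 (novelncTU_373, 477871 to 478140) had 1 and 4 of these reads.

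**Figure D4:**
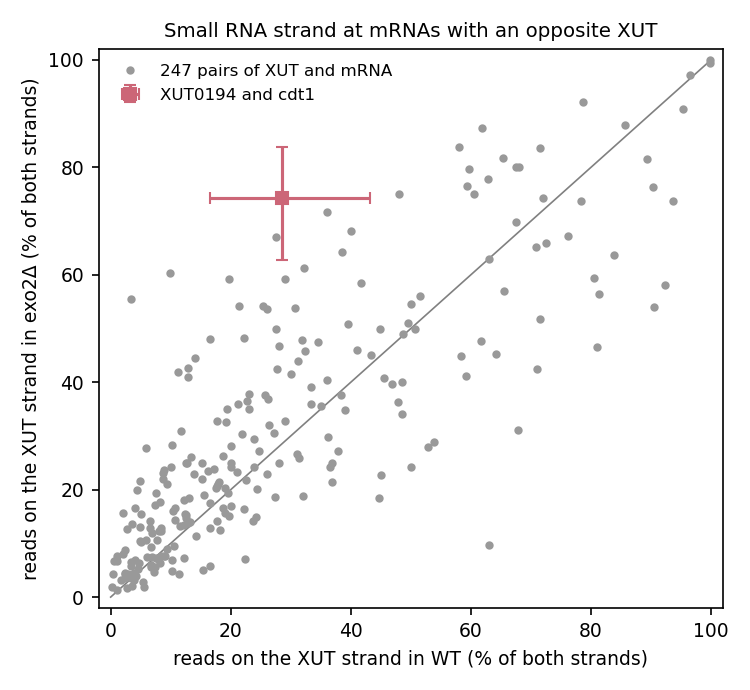
Reads on the XUT strand as a percent of the reads on both strands in WT (x axis) and exo2Δ (y axis), for the pairs of a XUT and an mRNA that both had a mean of at least 10 reads. The grey line marks equal shares, and the red square with exact binomial 95% intervals is XUT0194 with cdt1, at 28.6% and 74.3%.

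The other opposite rows had few reads. At cdc18, XUT1104 (2217303 to 2218172) and SPNCRNA.1495 (2217261 to 2218094), which overlap each other over the start of the gene, each had 5 reads in WT and 5 in exo2Δ. XUT1104 held 6.49% of the reads of both strands in WT and 10.6% in exo2Δ, with an odds ratio of 1.71 (0.369 to 7.89). At cdc22, XUT0710 (4227132 to 4227589) had 2 and 5 reads, or 0.299% and 0.917% of both strands. The longer unit novelncTU_324 (4227150 to 4229476) had 11 and 20 reads, a ratio of 1.81 (0.829 to 4.19), and novelncTU_325 had 0 and 2. At cdc2, SPNCRNA.1438 (1499986 to 1500798), over the start of the gene, had 2 and 6 reads. Against the reads of the gene, the odds ratio was 2.24 (1.01 to 5.23) for novelncTU_324, just above 1, and 3.94 (0.679 to 41.1) for SPNCRNA.1438. For the opposite rows of cdc18 and cdc2 and for XUT0710, a change of the strand shares was not detectable at this depth.

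At cig2 the opposite rows had values in both directions. The ncRNA SPNCRNA.846 (2710681 to 2712634), which covers the whole coding exon, had 18 WT reads and 8 exo2Δ reads, a ratio of 0.444 (0.167 to 1.07) whose interval includes 1. Beyond it the convergent gene pmc1, named here after its values were seen, covers the last 1459 nt of the cig2 row. Over its whole row of 5741 nt, pmc1 had 184 and 278 reads, a ratio of 1.51 (1.25 to 1.83). Its reads within those 1459 nt were not counted separately.

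The genes that act with these 9 were summarised in lists. Their counts are on the deposited scaling and shift with it as those of the 9 genes do. Of 63 such genes all passed the read limit, 5 (7.94%) were more than 2-fold lower and 1 (1.59%) more than 2-fold higher, near the 5.05% and 2.4% of all tested mRNAs, and their median log2 ratio was -0.21. Of the MBF subunits and regulators none of 6 passed 2-fold, with a median of -0.31. The lowest was nrm1, a corepressor of MBF, at -0.70 with 130 and 80 reads. The highest was res2, a DNA-binding subunit, at 0.40 with 36 and 48 reads.

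Genes of the complexes loaded at origins were given next, and their ranges overlapped. None of the 6 MCM subunits passed 2-fold, their median was -0.045, and they ran from mcm7 at -0.28 to mcm5 at 0.47. Of the 6 subunits of the origin recognition complex, orc6 was more than 2-fold lower (5.05% of all tested mRNAs were) with 27 and 12 reads, a ratio of 0.444 (0.205 to 0.905). The median of the complex was -0.53, and orc5 was highest at 0.55 with 61 and 90 reads. Among 11 origin firing factors 2 were more than 2-fold lower, where 5.05% of all tested mRNAs were. These were psf2, a subunit of the GINS complex of the replicative helicase, with 69 and 27 reads, and cdc23, which encodes Mcm10, with 70 and 28 reads. Their ratios were 0.390 (0.241 to 0.617) and 0.399 (0.248 to 0.627). The same list held psf1, another GINS subunit, at a log2 ratio of 0.66 with 18 and 29 reads, and its median was -0.23.

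Of 9 genes for the replicative polymerases, the clamp and the ligase, 8 had a log2 ratio below 0, as had 2987 of the 4749 tested mRNAs. None of the 9 passed 2-fold, and their median was -0.32. The lowest was spp1, the catalytic primase subunit, at -0.99 with 156 and 78 reads. The highest was cdc6, the catalytic subunit of polymerase delta, at 0.15 with 165 and 183 reads. Of the partners of cdc22, the small reductase subunit gene suc22 had 678 and 594 reads, or 0.467 and 0.408 tags per nt, above cdc22 in both libraries. The reductase inhibitor gene spd1 had a log2 ratio of -0.64 with 75 and 48 reads, and ddb1, which acts in the ubiquitin ligase that removes Spd1, had 0.030 with 172 and 176 reads. The median of these 4 genes was -0.33, and none passed 2-fold.

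Among 9 other cyclins, kinases and regulators of Cdc2, 2 were more than 2-fold lower, against 5.05% of all tested mRNAs, and the median was -0.19. The polarity kinase gene pom1, which acts upstream of Wee1 through Cdr2, had 232 and 115 reads, a ratio of 0.495 (0.392 to 0.621). The gene srw1 (also ste9), whose product directs destruction of mitotic cyclins in G1, had 32 and 13 reads, a ratio of 0.405 (0.195 to 0.794). The highest of the list was pyp3, a phosphatase that acts beside Cdc25, at a log2 ratio of 0.28 with 78 and 95 reads.

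**Figure D5:**
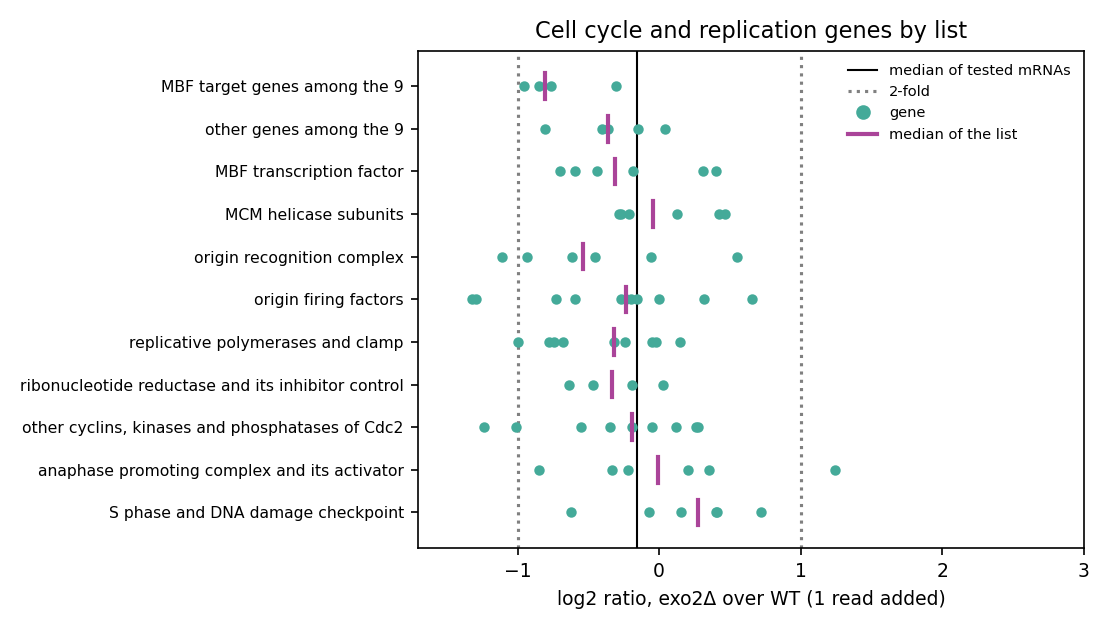
Log2 ratio of exo2Δ over WT (1 read added) for each gene with a mean of at least 10 reads, by list. Purple bars are list medians, from -0.81 for the 4 MBF targets among the 9 genes to 0.28 for the checkpoint genes. The other lists were not sorted by MBF control. The black line is the median of the tested mRNAs, -0.15.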

How the data were processed

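Small RNAs of 1 WT and 1 exo2Δ library were analysed, grouped by the strain given in the labels. The authors trimmed adapters (cutadapt), kept reads that mapped once (Bowtie, with mismatches tolerated) and deposited a signal, the tag density per nt of each annotated feature. The submitters' processing notes name ASM294v2. The study's small RNA analysis kept RNAs of 18 to 30 nt, and whether the deposited table was filtered in this way is not given in the sources used here. Repeats are missed by unique mapping.

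Of the 19343 rows, density times length was within 1e-06 of a whole number of reads in 100% for WT, and of a whole multiple of 0.998 in 100% for exo2Δ. Reads were recovered from these steps, and ratios keep that factor. The unit is a signal per nt, so no count test was run, and the step differs with feature length. Log2 ratios add 1 read, which understates changes of low features. Features needed a mean of at least 10 reads. Opposite rows overlap by at least 50 nt. Intervals are exact at 95%: Poisson for densities, Clopper-Pearson for shares and ratios, conditional for odds ratios. The 2 libraries give no residual error, so no test was made, and the planned optional binomial test per feature was not run.

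Promoter windows were placed on the deposited starts. Reference chromosomes I to III (RefSeq ASM294v3) read 99.9% of 5119 deposited coding frames, and 9 of 9 here, open from ATG to stop. Symbols came from RefSeq and matched all listed genes. The 9 genes and the lists were chosen with earlier results of these data known. The named genes were the 9, noncoding rows overlapping them, exo2 and ura4, and in each list those past 2-fold, otherwise the highest and lowest. Named beyond this rule after their values were seen were orc5, psf1, pyp3, suc22, cut23, rad3 and pmc1. The search for ACGCG, the odds of reads inside and outside coding exons, the odds for opposite rows and the rank of pairs were chosen after the data were seen. The sum of the MBF targets without cdc22 was not planned either. Alternatives changed scaling, added reads, the read limit, the fold, the overlap and the rows counted. Recovery and intervals were tested on simulated data. Tools were Python 3.11.15, pandas 2.3.3, numpy 2.4.6, scipy 1.17.1, Biopython 1.88 and matplotlib 3.10.9.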

Additional observations from a re-analysis of the deposited data

How the results depend on the processing

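The median log2 ratio of the 9 genes stayed negative under every alternative run, from -0.72 with coding exons only to -0.25 on the median ratio of mRNAs. No background of all mRNAs was computed for coding exons only, and as deposited the tested mRNAs had a median of -0.15. In summed reads the log2 ratio of the 9 genes was -0.35, and it moved to -0.60 on sn(o)RNAs and to -0.20 on the median ratio of mRNAs. With coding exons only this summed value was -0.30, nearer 0 than in the main run, while the median was further from 0. The number more than 2-fold lower went from 0 to 4 on sn(o)RNAs, and the percent of mRNAs so low from 5.05 to 10.5 there, to 3.07 on the median ratio of mRNAs and to 0.442 at 4-fold. The percent more than 2-fold higher went from 2.4 to 1.54 on sn(o)RNAs and to 0.232 at 4-fold. Of the changed mRNAs 32.2% were higher as deposited, 12.7% on sn(o)RNAs and 53.7% on the median ratio of mRNAs. A scaling moves all ratios nearly alike, and a larger fold leaves fewer features. The change of XUT0194 over cdt1 ran from 2.40 to 2.84, over scalings and added reads chosen after the data were seen. Overlaps of 1 and 200 nt also gave 3 opposite XUTs. Of 69 alternative log2 ratios of single genes and XUTs, 3 moved beyond their counting interval. No paired analysis was possible because neither strain has more than 1 library. Depth limits cdt1, with 35 and 19 reads, and the opposite rows other than XUT0194.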

Other observations

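The genes that act after and beside this machinery had values that were not part of the comparisons above. Of 6 genes of the anaphase promoting complex and its activator, which end mitosis by destroying cyclins such as Cdc13, cut20 was more than 2-fold higher in exo2Δ than in WT, as were 2.4% of all tested mRNAs. It had 23 WT reads and 56 exo2Δ reads, a ratio of 2.43 (1.47 to 4.14). In the same complex cut23 had 60 and 33 reads, a ratio of 0.549 (0.348 to 0.853), and the median log2 ratio was -0.0077, with 3 genes below 0 and 3 above.

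Of 6 checkpoint genes none passed 2-fold, and the median log2 ratio was 0.28, the highest of the lists. The highest was cds1, the kinase of the replication checkpoint, at 0.72 with 39 and 65 reads, and the ATR kinase gene rad3 had 0.40 with 242 and 320 reads. The lowest was mrc1, the mediator that activates Cds1, at -0.62 with 211 and 137 reads. These values are on the deposited scaling, and scaling on sn(o)RNAs shifts log2 ratios by -0.24.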
